A study of Homo sapiens with 6 samples.

Results

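GFAP and 9 genes used to describe glial and glioma stem-cell identity (VIM, NES, SOX2, SOX9, OLIG2, CD44, PROM1, FABP7 and SLC1A3) were followed in U251 cells, a human glioblastoma line, after transfection with a STING plasmid. The genes were the 10 table entries whose symbol equals one of these names, out of 42307 genes listed, and each symbol matched 1 entry. STING-OE cells (3 libraries) had received a plasmid that overexpresses STING, the adaptor of cytosolic DNA sensing that is encoded by STING1. NC cells (3 libraries) had received a negative control plasmid. Both groups were the same line with its genotype labelled WT, were given 1 ug of plasmid per well and were collected on day 3, so plasmid transfection was common to both and no untransfected cells were compared. RNA was measured by bulk RNA sequencing, and the libraries held between 71498790 and 76566375 counts.

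GFAP, vimentin (VIM) and nestin (NES) are intermediate filament proteins. Nestin and vimentin mark neural progenitors and immature glia, whereas GFAP is the classical filament of astrocytes and of reactive and tumour glia. SOX2 and SOX9 are transcription factors of neural stem cells and of the glial lineage, and OLIG2 is a transcription factor of oligodendrocyte precursors and of many gliomas. CD44 is the hyaluronan receptor associated with mesenchymal glioma cells, and PROM1 encodes prominin-1 (CD133), a surface protein used to enrich glioma stem cells. FABP7 is the brain fatty acid binding protein of radial glia, and SLC1A3 is the astrocytic glutamate transporter GLAST.

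Counts of the plasmid's target were higher in the group labelled for it. STING1 had 56.3, 54.7 and 47.3 CPM (counts relative to the library size, scaled by the TMM method) in the STING-OE libraries, against 36.2, 37.1 and 31.2 CPM in the NC libraries, which is 0.60 on the log2 scale (SE 0.078, adjusted p = 0.00221 by edgeR's quasi-likelihood test and Benjamini-Hochberg adjustment). The STING1 call was lost with limma on FPKM values (0.61, adjusted p = 0.0732). Fold changes are STING-OE over NC throughout. A gene was said to have risen or fallen where that adjusted p was below 0.05, which 1.49% of the 21679 tested genes met (131 higher and 193 lower, or 246 higher and 138 lower with scaling to total counts). No label says that the libraries of a group came from separate cultures, so p-values measure only the spread between these libraries, which may be technical. In bulk RNA, fewer cells of a kind and less RNA per cell cannot be told apart.

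Of the 10 genes, GFAP alone passed the test, and it fell. VIM, NES, SOX2, SOX9, OLIG2, CD44, FABP7 and SLC1A3 were tested and did not pass, and PROM1 had too few counts to be tested. Of the 9 tested genes 1 was therefore called lower, beside 0.89% of all tested genes, and 0 were called higher, beside 0.604%. The 10 genes were chosen with earlier results of these data known, so these shares are no independent test. All 9 estimates were below 0, as were 49.8% of all estimates, and their median log2 fold change was -0.15 beside 0.00 over all tested genes. An unadjusted p below 0.05 was met by 5 of them, each lower, beside 7.2% of all tested genes on that side and 14.4% on either. The estimates of SLC1A3 (-0.01, SE 0.055) and OLIG2 (-0.04, SE 0.77) were small beside their errors. With scaling to total counts SLC1A3 stood above 0, at 0.0174, and VIM, which is among the 5, stood at -0.06 (SE 0.037). The libraries of the groups did not overlap for GFAP, VIM, NES and SOX9, with STING-OE lower in each, and 9.73% of all tested genes separated that way and 19.9% in either direction.

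RefSeq promoter windows, the 250 bases before each annotated start in GRCh38.p14, were matched for 7 of the 10 genes, in 12 windows, and GFAP, SOX9 and OLIG2 had no entry. The windows of NES, VIM, SOX2 and FABP7 are shown because these matched genes had the largest fold change estimates in size. They lie at chr1:156677408-156677657 (NES, minus strand), chr10:17227991-17228240 (VIM, plus strand), chr3:181711675-181711924 (SOX2, plus strand) and chr6:122779466-122779715 (FABP7, plus strand), and each is written 5′ to 3′ towards its start. The motifs were searched on both strands, and no matches overlapped in these windows. Capitals mark the first, GGGCGG (the GC box), and the second, CCAAT, and the third was TATAAA.
NES: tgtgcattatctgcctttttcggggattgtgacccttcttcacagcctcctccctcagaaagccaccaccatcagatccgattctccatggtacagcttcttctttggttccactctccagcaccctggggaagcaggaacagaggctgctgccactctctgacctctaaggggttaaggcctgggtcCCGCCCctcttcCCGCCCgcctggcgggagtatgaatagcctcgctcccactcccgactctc
VIM: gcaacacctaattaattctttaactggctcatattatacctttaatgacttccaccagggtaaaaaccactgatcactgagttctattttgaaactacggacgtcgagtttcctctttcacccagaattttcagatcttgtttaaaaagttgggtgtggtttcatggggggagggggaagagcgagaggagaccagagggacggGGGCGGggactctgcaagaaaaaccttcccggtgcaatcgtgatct
SOX2: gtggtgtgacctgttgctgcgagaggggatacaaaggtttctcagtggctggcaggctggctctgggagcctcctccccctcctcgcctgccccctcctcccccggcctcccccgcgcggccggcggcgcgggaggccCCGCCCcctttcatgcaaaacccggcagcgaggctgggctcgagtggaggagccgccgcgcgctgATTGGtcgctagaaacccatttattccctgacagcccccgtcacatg
FABP7: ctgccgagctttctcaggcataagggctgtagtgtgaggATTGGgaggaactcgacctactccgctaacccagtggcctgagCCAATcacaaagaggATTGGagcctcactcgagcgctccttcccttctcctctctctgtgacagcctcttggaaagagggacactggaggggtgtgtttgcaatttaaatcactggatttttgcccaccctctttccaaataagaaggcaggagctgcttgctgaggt
The NES window held 2 GC boxes and no match to the second motif, with a GC content of 58.0%. The VIM window held 1 GC box at a GC content of 46.0%. The SOX2 window had 1 match to each motif at a GC content of 68.8%, and the FABP7 window had 3 matches to the second motif and no GC box at 52.8%. Among 35116 RefSeq windows of that length, 42.6% held a GC box and 32.0% held the second motif. The third motif was in 10.7% of all windows and in none of the 12. The median GC content of all windows was 58.0%. Such matches describe the letters and not sites in use.

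GFAP (ENSG00000131095, GRCh38 chr17:44903159-44916937, minus strand) had 1637, 1372 and 1937 counts in the STING-OE libraries, against 3146, 2471 and 2981 counts in the NC libraries. These corresponded to 21.3, 17.7 and 25.5 CPM in STING-OE cells and 42.8, 34.9 and 39.5 CPM in NC cells. The groups did not overlap, and the highest STING-OE library reached 0.731 of the lowest NC library. GFAP averaged 21.5 ± 3.88 CPM in STING-OE cells and 39.1 ± 3.98 CPM in NC cells (SD, n = 3 each), 44.9% lower, and fell by 0.86 on the log2 scale (SE 0.136, approximate 95% interval -1.18 to -0.54, edgeR adjusted p = 0.033). It ranked 205 of the 21679 tested genes by p. Among 14894 genes with a mean of at least 1 CPM, 52 had a log2 fold change at or below that of GFAP, and by size GFAP was number 4 of the 192 genes called lower there. The call depended on single libraries, since adjusted p was 0.0773 without NC 1, 0.0987 without NC 3 and 0.107 without STING-OE 1, with log2 fold changes of -0.79, -0.85 and -0.85, and it ran from 0.000335 to 0.107 over all libraries left out in turn. It was also lost with no filter on low counts (adjusted p = 0.081), with limma on FPKM values (0.1003) and with offsets for GC content and length (-0.80, 0.0586), whereas the direction held in every alternative run.

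**Figure D1:**
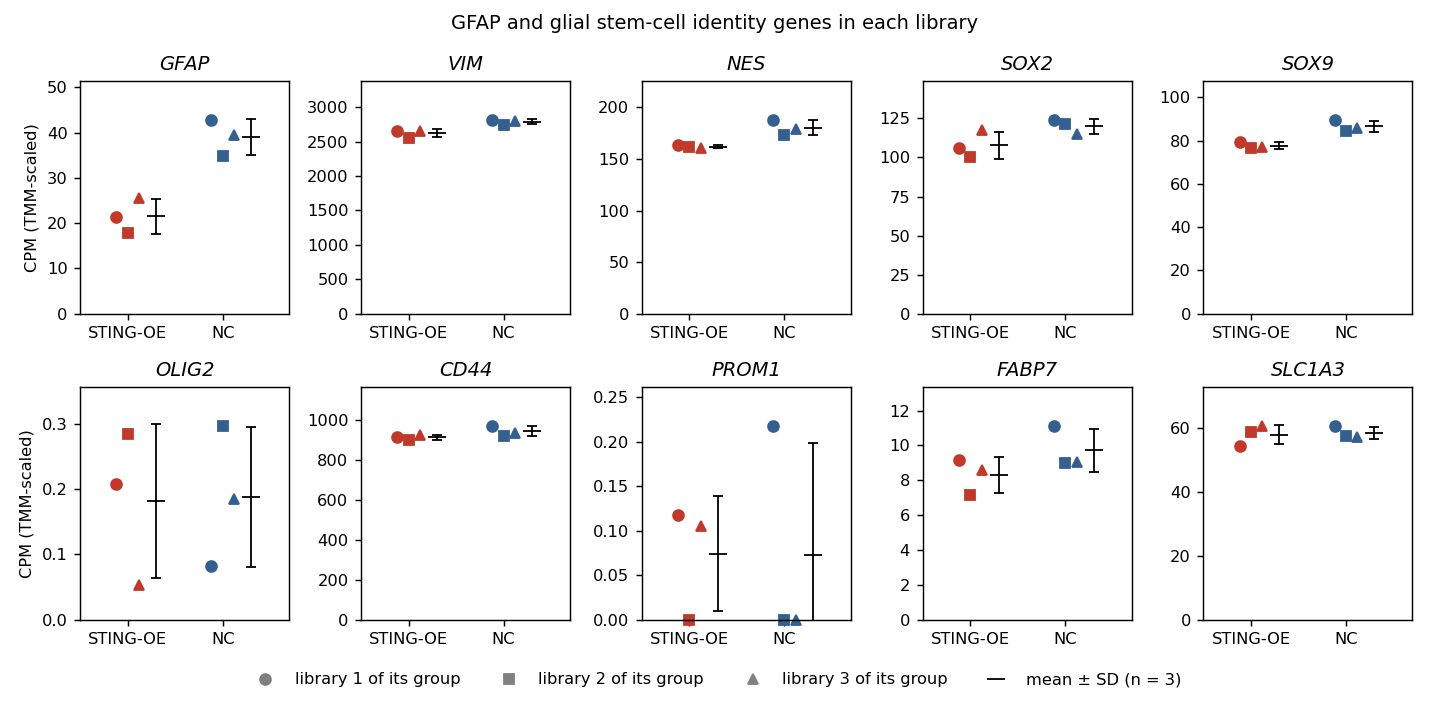
CPM of each of the 10 genes in each library, STING-OE in red and NC in blue, with the mean ± SD of each group (n = 3); each panel has its own linear axis from 0. The STING-OE libraries lie below the NC libraries for GFAP, VIM, NES and SOX9, and the groups overlap for the other genes.

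The deposited tables annotate 2 genes on the strand opposite to GFAP that overlap its end, CCDC103, a dynein arm assembly factor, and FAM187A. Each shares 2230 exon bases with GFAP in GENCODE v29, which is 18.4% of the GFAP exon bases. The strand setting of the counting is not given in the sources used here, so reads from that stretch cannot be assigned with certainty. FAM187A had 3.88, 5.42 and 4.198 CPM in STING-OE libraries, against 6.30, 5.89 and 5.68 CPM in NC libraries, and did not pass the test (log2 fold change -0.40, SE 0.153, edgeR adjusted p = 0.215). CCDC103 averaged 2.84 ± 0.3001 CPM in STING-OE cells and 2.97 ± 0.0597 CPM in NC cells, with overlapping groups. With the counts of all 3 genes summed, the level was 28.9 ± 3.04 CPM in STING-OE cells and 48.0 ± 4.12 CPM in NC cells (SD, n = 3 each), and the log2 difference was -0.73 (SE 0.081, edgeR adjusted p = 0.000697).

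The other filament genes, VIM and NES, were abundant and differed much less than GFAP. VIM (ENSG00000026025, chr10:17228241-17237593) had 2659.6, 2560.0 and 2658.9 CPM in STING-OE libraries, against 2817, 2745 and 2797 CPM in NC libraries. The groups did not overlap, but the log2 fold change of -0.09 (SE 0.039, interval -0.17 to 0.00) did not pass the adjusted test (edgeR adjusted p = 0.32). NES (ENSG00000132688, chr1:156668763-156677407) had 163, 162 and 160.3 CPM in STING-OE libraries, against 188, 173 and 179 CPM in NC libraries. Its groups did not overlap either, with an SD of 1.61 CPM in STING-OE cells and 7.32 CPM in NC cells (n = 3 each). The NES estimate was -0.16 (SE 0.045, interval -0.25 to -0.06, edgeR adjusted p = 0.106), and -0.09 with offsets for GC content and length. NES did pass with DESeq2 (adjusted p = 0.0139). On the opposite strand VIM-AS1, an antisense RNA that shares 12.4% of the VIM exon bases, had 2.60, 9.48 and 3.07 CPM in STING-OE libraries and 2.53, 3.06 and 2.30 CPM in NC libraries. Only STING-OE 2 stood above the rest. AL133415, which also overlaps VIM on the opposite strand, had 0.534, 0.763 and 0.855 CPM in STING-OE libraries. It had 0.422, 0.325 and 0.477 CPM in NC libraries and did not pass the test (edgeR adjusted p = 0.334). Summing VIM with both of these genes left the VIM estimate at -0.08.

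**Figure D2:**
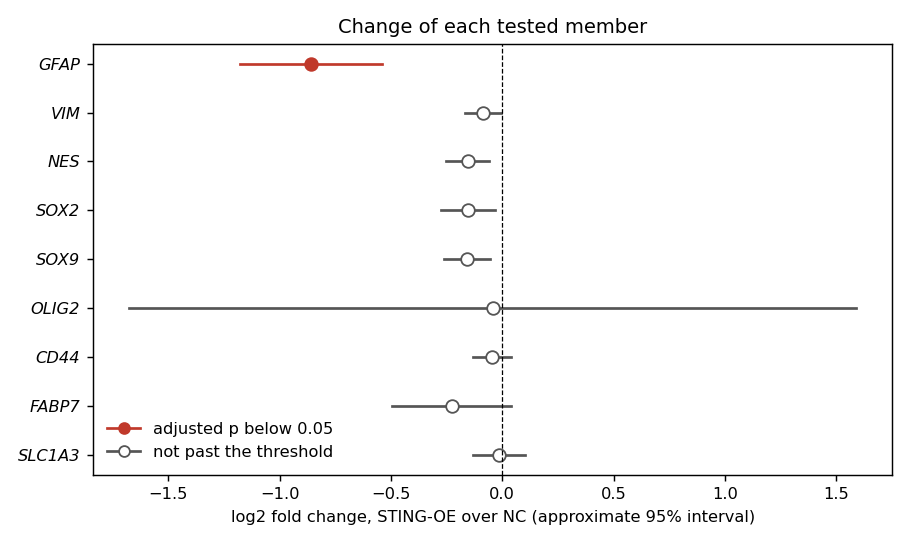
Log2 fold change, STING-OE over NC, of the 9 genes that were tested, with the approximate 95% interval of the edgeR fit; the filled red point passed adjusted p below 0.05. The GFAP interval, -1.18 to -0.54, lies below those of VIM, NES, SOX2, SOX9, CD44, FABP7 and SLC1A3, and the OLIG2 interval is the widest.

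The transcription factors SOX2 and SOX9 had estimates close to that of NES, and with the offsets both stood at -0.16. SOX9 (ENSG00000125398, chr17:72121020-72126416) had 79.5, 76.4 and 76.8 CPM in STING-OE libraries, against 89.6, 84.5 and 85.7 CPM in NC libraries. The groups did not overlap, with STING-OE 10.4% lower on average, and the log2 fold change was -0.16 (SE 0.048, interval -0.26 to -0.06, edgeR adjusted p = 0.116). SOX9 did pass with DESeq2 (adjusted p = 0.0383), and by edgeR with a filter at a mean of 1 CPM (0.0452) and with the offsets (0.0473). SOX2 (ENSG00000181449, chr3:181711925-181714436) had 106, 100.1 and 117 CPM in STING-OE libraries, against 124, 121 and 115 CPM in NC libraries. Its groups overlapped because STING-OE 3 exceeded NC 3, and its estimate was -0.15 (SE 0.058, interval -0.28 to -0.03, edgeR adjusted p = 0.211). SOX2 lies inside SOX2-OT, a long non-coding gene on the same strand with which it shares 0 exon bases in GENCODE v29. SOX2-OT averaged 45.3 ± 1.91 CPM in STING-OE cells and 49.2 ± 0.434 CPM in NC cells (log2 fold change -0.12, edgeR adjusted p = 0.336).

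OLIG2 (ENSG00000205927, chr21:33025935-33029185) was near the detection limit. It had 16, 22 and 4 counts in STING-OE libraries, against 6, 21 and 14 counts in NC libraries, where the floor taken as 3 counts was 0.0392 to 0.042 CPM per library. Its groups overlapped fully, and the interval of its log2 fold change ran from -1.68 to 1.59, so changes of the size seen for GFAP were not detectable for OLIG2 in these libraries. The floor covers counting error only, whereas the interval comes from the fit and includes the spread between libraries.

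Of the surface proteins, CD44 was high in all libraries and PROM1 was nearly absent from the counts. CD44 (ENSG00000026508, chr11:35138882-35232402) had 913, 900.5 and 924 CPM in STING-OE libraries, against 970, 921 and 936 CPM in NC libraries. The groups overlapped, since STING-OE 3 exceeded NC 2, and the log2 fold change was -0.05 (SE 0.040, interval -0.13 to 0.04, edgeR adjusted p = 0.689). PROM1 (ENSG00000007062, chr4:15963076-16084023) had 9, 0 and 8 counts in STING-OE libraries, against 16, 0 and 0 counts in NC libraries. It was counted in some libraries of each group and did not pass the filter on low counts.

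FABP7 and SLC1A3, which serve fatty acid and glutamate transport, did not separate the groups. FABP7 (ENSG00000164434, chr6:122779716-122784074) had 9.18, 7.14 and 8.57 CPM in STING-OE libraries, against 11.1, 8.98 and 9.04 CPM in NC libraries. STING-OE 1 exceeded NC 2 and NC 3, and the log2 fold change of -0.23 (SE 0.127, interval -0.50 to 0.04) did not pass the test (edgeR adjusted p = 0.452). The FABP7 estimate was -0.12 without NC 1 and -0.13 without STING-OE 2. SLC1A3 (ENSG00000079215, chr5:36606355-36688334) had 54.5, 58.8 and 60.5 CPM in STING-OE libraries, against 60.6, 57.5 and 57.3 CPM in NC libraries. STING-OE 1 was the lowest library and NC 1 the highest. The SLC1A3 estimate was -0.01 (SE 0.055, interval -0.13 to 0.10, edgeR adjusted p = 0.957).

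Levels were compared between genes on the authors' deposited FPKM scale, which is per gene length. VIM was highest, at 472 ± 5.69 FPKM in STING-OE cells and 494 ± 11.5 FPKM in NC cells (SD, n = 3 each, as for the other genes). CD44 followed at 85.0 ± 0.897 FPKM in STING-OE cells and 86.5 ± 3.28 FPKM in NC cells, then SOX2 at 39.9 ± 3.10 FPKM in STING-OE cells and 43.8 ± 2.14 FPKM in NC cells. NES stood at 27.0 ± 0.305 FPKM in STING-OE cells and 29.7 ± 1.54 FPKM in NC cells, and SOX9 at 18.4 ± 0.224 FPKM in STING-OE cells and 20.2 ± 0.860 FPKM in NC cells. These neighbours did not overlap in any library, with VIM far above the rest. SLC1A3 came next at 8.59 ± 0.527 FPKM in STING-OE cells and 8.55 ± 0.375 FPKM in NC cells. FABP7 had 3.10 ± 0.356 FPKM in STING-OE cells and 3.58 ± 0.494 FPKM in NC cells, and GFAP had 1.77 ± 0.311 FPKM in STING-OE cells and 3.18 ± 0.355 FPKM in NC cells. FABP7 lay above GFAP in the STING-OE libraries (2.70 to 3.39 FPKM for FABP7, 1.48 to 2.10 FPKM for GFAP), whereas the pair overlapped in the NC libraries (3.28 to 4.15 FPKM for FABP7, 2.82 to 3.53 FPKM for GFAP). OLIG2 averaged 0.05 FPKM in both groups and PROM1 at most 0.01 FPKM, and these genes were not told apart in every library. The place of GFAP depends on the length used: its FPKM values imply 12.3 kb, close to all its exons merged (12.1 kb), against 6.54 kb for its longest transcript. Per kb of the longest transcript GFAP had 3.29 CPM in STING-OE cells and 5.97 CPM in NC cells, and FABP7 had 3.98 CPM in STING-OE cells and 4.66 CPM in NC cells, so that GFAP then stood above FABP7 in NC cells.

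The balance of GFAP against the other genes was also read within each library, which does not depend on library scaling. There were 125, 144 and 104 VIM counts for each GFAP count in STING-OE libraries, against 65.8, 78.7 and 70.8 in NC libraries. The log2 ratio of GFAP to VIM was -6.95 ± 0.234 in STING-OE cells and -6.16 ± 0.130 in NC cells (SD, n = 3 each). All STING-OE libraries lay below all NC libraries in the ratios of GFAP to VIM, NES, SOX2, SOX9, CD44, FABP7 and SLC1A3. These ratios share the GFAP count, so they are not independent of each other. The log2 differences, STING-OE minus NC, ran from -0.86 (to SLC1A3) to -0.64 (to FABP7). Each of these had p = 0.1 in a two-sided exact permutation test, the smallest value that 3 against 3 libraries allow, and 0.129 after Benjamini-Hochberg adjustment over the 9 ratios. The ratios to OLIG2 and PROM1 overlapped between the groups (exact p = 0.5 and 0.3).

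**Figure D3:**
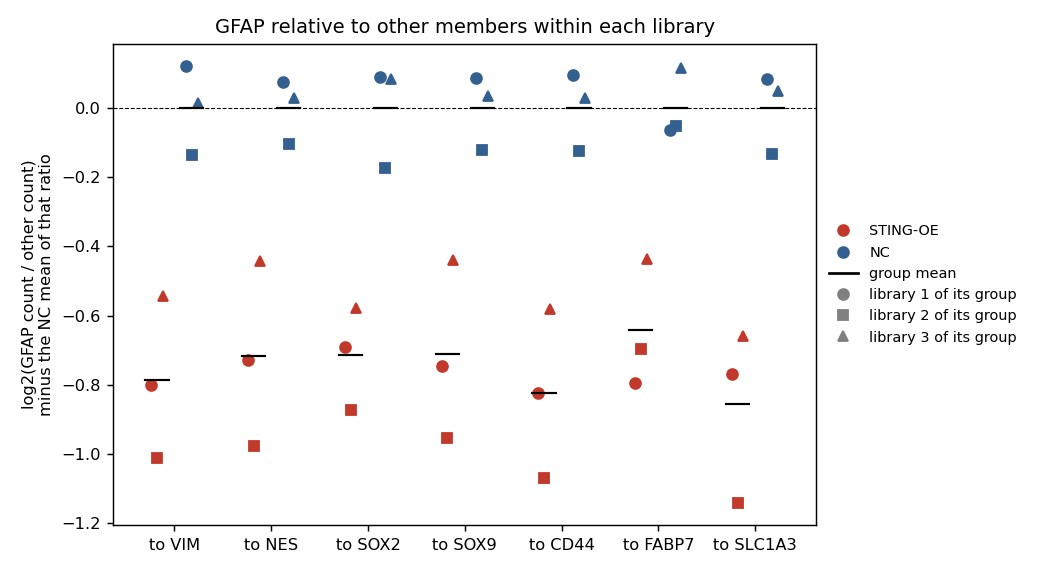
Log2 of the GFAP count over the count of each of 7 other genes in the same library, set to 0 at the NC mean of that ratio; points are libraries, STING-OE in red and NC in blue, and bars are group means. In all 7 ratios the STING-OE libraries lie below the NC libraries, with STING-OE 3 nearest to them.

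Genes whose pattern over the 6 libraries was most like that of GFAP were sought among 10302 genes with a mean of at least 10 CPM. Likeness was the root mean square difference of log2 CPM after each gene was centred on its mean. The nearest were SCD (0.128), SREBF1 (0.131), FADS2 (0.131), DHRS3 (0.138) and FASN (0.173). SCD, FADS2 and FASN encode enzymes of fatty acid desaturation and synthesis, SREBF1 encodes a sterol-regulated transcription factor of lipid synthesis, and DHRS3 encodes a retinal reductase. FADS2, DHRS3 and FASN fell, with log2 fold changes of -0.80, -0.67 and -0.59 (edgeR adjusted p = 0.0175, 0.0237 and 0.00538). Since these genes were picked for their likeness to GFAP, their direction followed from the choice. The FADS2 call was lost without NC 1, NC 2 or STING-OE 1 (adjusted p = 0.0773, 0.0716 and 0.077) and with the offsets (0.0584). The DHRS3 call was lost without NC 1, NC 2 or NC 3 (adjusted p = 0.0948, 0.113 and 0.0557), the FASN call without STING-OE 1 (0.088), and all 3 with limma on FPKM (0.0646, 0.126 and 0.0646). SCD and SREBF1, at -0.79 and -0.69, did not pass the test (edgeR adjusted p = 0.12 and 0.148), but both were called with DESeq2 (5.94e-05 and 0.00239) and without STING-OE 3 (0.00988 and 2.89e-05). The gene models of FADS2 and FADS1, which lie on opposite strands, overlap, and the strand of reads there is as uncertain as for GFAP. SCD had 789, 657 and 928 CPM in STING-OE libraries, against 1408, 1451 and 1249.9 CPM in NC libraries, and like GFAP it was lowest in STING-OE 2 and highest among STING-OE libraries in STING-OE 3. The other identity genes ranked far lower in likeness to GFAP, SOX2 at place 505, SOX9 at 772, NES at 824, VIM at 1751, CD44 at 2701 and SLC1A3 at 3836. Likeness includes the size of the change, so genes with smaller fold changes rank lower by it, and these places are no separate result. FABP7, OLIG2 and PROM1 had a mean below 10 CPM and were not ranked.

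Wider lists of related genes were then counted. The lists were chosen with earlier results of these data known, so their counts are no independent test. Over all tested genes 0.89% were called lower and 0.604% higher, 49.8% of estimates were below 0 and the median was 0.00. An unadjusted p below 0.05 was met by 14.4% of all tested genes. In the list of intermediate filament and linker genes, 2 of 18 tested genes fell, GFAP and CRYAB, 0 rose, and 16 estimates were below 0 (median log2 fold change -0.09). In this list 3 genes, GFAP among them, also belong to the 10 and are counted here again. CRYAB, a small heat shock protein that binds filaments, averaged 9.12 ± 1.52 CPM in STING-OE cells and 13.3 ± 0.862 CPM in NC cells (log2 fold change -0.54, edgeR adjusted p = 0.033). Of 30 tested regulators of GFAP 3 fell, 0 rose and the median was -0.05. These were ID1 and ID3, inhibitors of basic helix-loop-helix factors, and NFIX, a nuclear factor I protein. ID1 averaged 158 ± 12.02 CPM in STING-OE cells and 190 ± 1.64 CPM in NC cells (log2 fold change -0.26, edgeR adjusted p = 0.022). ID3 averaged 180.2 ± 15.5 CPM in STING-OE cells and 217 ± 1.83 CPM in NC cells (-0.27, adjusted p = 0.0238). NFIX averaged 116 ± 4.37 CPM in STING-OE cells and 133 ± 2.21 CPM in NC cells (-0.20, adjusted p = 0.0441). Of 17 tested astrocyte markers 1 fell and 0 rose (median -0.02), which was GLUL, glutamine synthetase, at 70.0 ± 3.89 CPM in STING-OE cells and 85.1 ± 2.004 CPM in NC cells (-0.28, edgeR adjusted p = 0.0139).

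Of 34 tested neural and glioma stem-cell factors 1 fell and 0 rose (median log2 fold change -0.06). It was TNC, the matrix protein tenascin-C, at 511 ± 11.3 CPM in STING-OE cells and 579 ± 10.0 CPM in NC cells (-0.18, edgeR adjusted p = 0.0386). Among 28 tested CD44 ligands, linkers and mesenchymal glioma genes 3 fell and 0 rose (median -0.03). VCAN, the hyaluronan-binding proteoglycan versican, averaged 203 ± 7.96 CPM in STING-OE cells and 234 ± 9.53 CPM in NC cells (-0.21, edgeR adjusted p = 0.0409). MSN, the membrane linker moesin that binds the CD44 tail, averaged 790 ± 28.1 CPM in STING-OE cells and 895 ± 6.93 CPM in NC cells (-0.18, adjusted p = 0.0409). TGFBI, a matrix protein induced by TGF-beta, averaged 618 ± 17.8 CPM in STING-OE cells and 701 ± 12.7 CPM in NC cells (-0.18, adjusted p = 0.0396). No gene of the 9 tested oligodendrocyte lineage genes (median -0.03) or of the 12 tested glutamate and fatty acid transport genes (median -0.04) passed, by edgeR, DESeq2 or limma-voom, and an unadjusted p below 0.05 was met by 0 and 1 of them. The nearest to the threshold there were CSPG4 at 2.40 CPM in STING-OE cells and 1.78 CPM in NC cells (edgeR adjusted p = 0.401), DLL3 at 0.729 CPM in STING-OE cells and 1.10 CPM in NC cells (0.463), ACSL4 at 240.5 CPM in STING-OE cells and 259 CPM in NC cells (0.275, but 0.0373 with the offsets) and FABP5 at 0.234 CPM in STING-OE cells and 0.491 CPM in NC cells (0.353). Besides GFAP, 9 genes of the lists were called, and all 9 lost their call without NC 1, without NC 2, without NC 3 and without STING-OE 2. Their adjusted p then ran from 0.0948 to 0.225, 0.077 to 0.21, 0.0569 to 0.196 and 0.0711 to 0.17, with estimates from -0.57 to -0.16 in all of these settings. Of the 9, 1 was still called without STING-OE 3, 0 with limma on FPKM and 4 with scaling to total counts, where TNC, NFIX and the 3 genes of the CD44 list lost theirs.

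**Figure D4:**
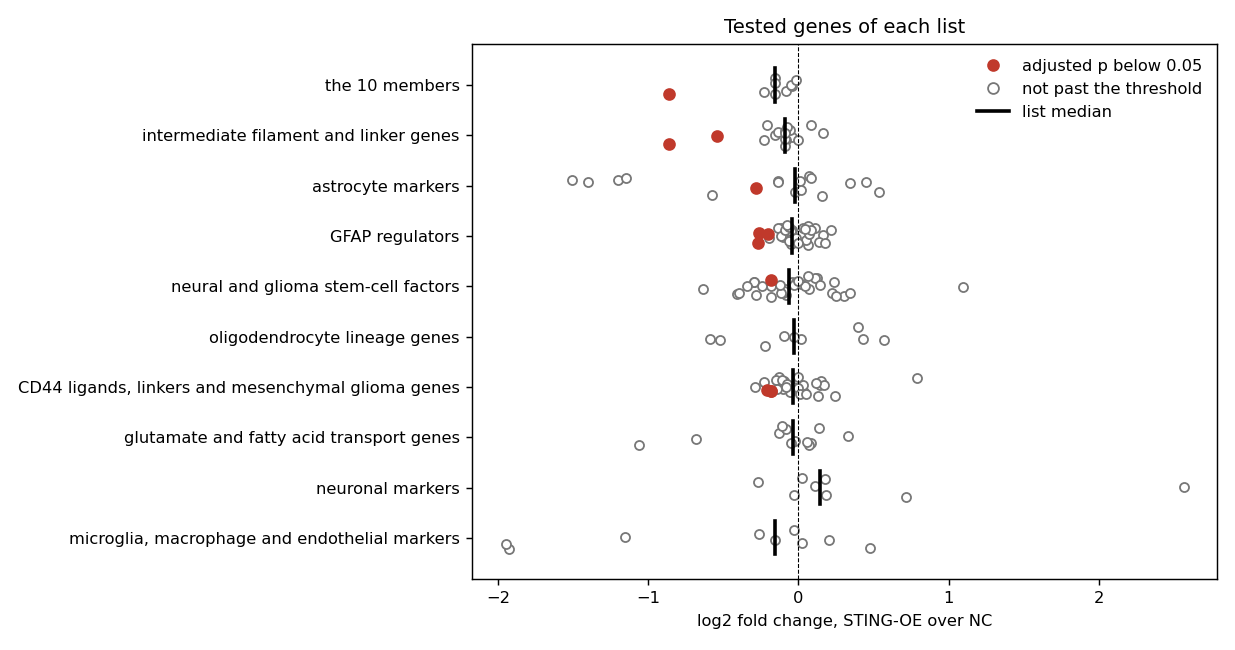
Log2 fold change, STING-OE over NC, of the tested genes of each list, 1 point per gene, with the list median as a black bar; filled red points passed adjusted p below 0.05. The called genes all lie below 0, and the medians lie between -0.16 and 0.14.

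Markers of other cell types were read beside these results, where 14.4% of all tested genes had an unadjusted p below 0.05. Of 8 tested neuronal markers 0 passed by edgeR, DESeq2 or limma-voom (2 at an unadjusted p below 0.05), with a median log2 fold change of 0.14 and a summed level of 242 to 264 CPM in STING-OE libraries and 239 to 254 CPM in NC libraries. MAP2, a neuronal microtubule protein, averaged 90.2 CPM in STING-OE cells and 79.8 CPM in NC cells (edgeR adjusted p = 0.305). DCX, doublecortin of migrating neurons, had 14, 12 and 13 counts in STING-OE libraries and 6, 0 and 0 counts in NC libraries (adjusted p = 0.303). Of 9 tested microglia, macrophage and endothelial markers 0 passed by the same tools (0 unadjusted), with a median of -0.16 and a summed level of 46.9 to 58.6 CPM in STING-OE libraries and 46.9 to 51.4 CPM in NC libraries. PTPRC, the leukocyte surface phosphatase CD45, had 72, 191 and 234 counts in STING-OE libraries, against 156, 541 and 352 counts in NC libraries, and CX3CR1, the fractalkine receptor of microglia, averaged 0.0822 CPM in STING-OE cells and 0.318 CPM in NC cells (adjusted p = 0.575 for PTPRC and 0.423 for CX3CR1). The summed astrocyte markers, in which GFAP was not counted, stood at 252 to 269 CPM in STING-OE libraries and 279 to 289 CPM in NC libraries. These sums include GLUL, the gene of the list that fell, whereas the list median was -0.02. Of the 17 tested astrocyte markers 8 had estimates above 0 and 9 below, 7 of the list stayed below 1 CPM in every library, and HEPACAM was at 0 in all libraries. The part of these markers in the GFAP result was not tested.

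**Figure D5:**
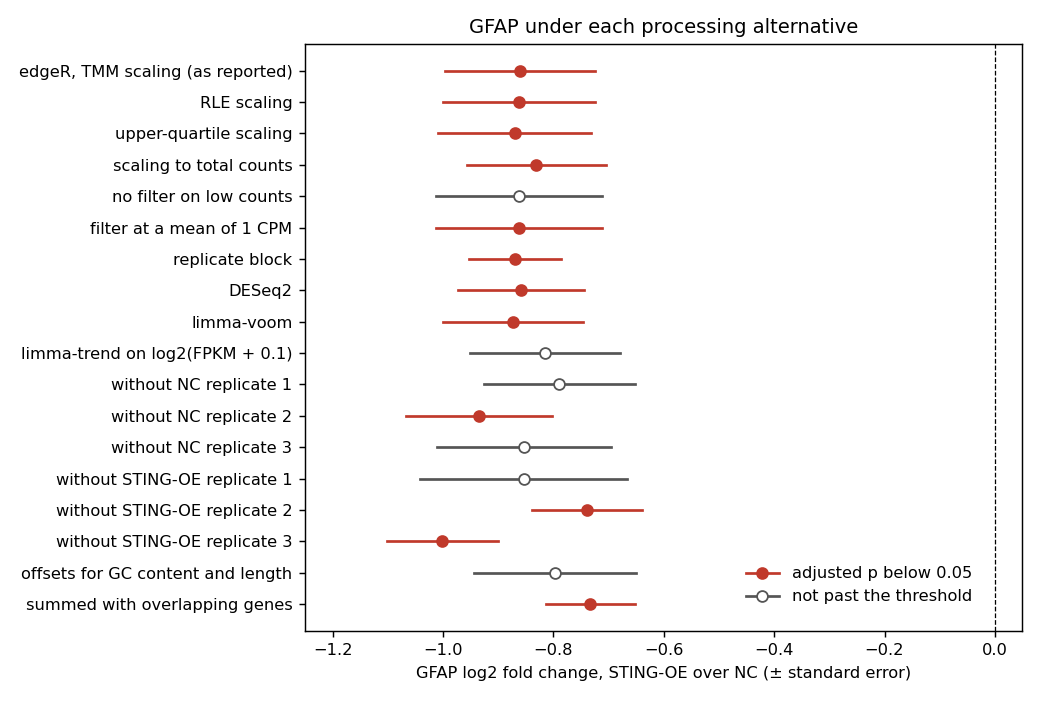
Log2 fold change of GFAP, STING-OE over NC, with its standard error, in the edgeR fit as reported and under each alternative; filled red points passed adjusted p below 0.05. Estimates lie between -1.001 and -0.73 throughout, and 6 of the alternatives did not pass the threshold.

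Libraries also differed in how counts depended on GC content. The change in log2 count per 10% of transcript GC was 0.0355, -0.0745 and -0.0429 in the STING-OE libraries and 0.0129, 0.0469 and 0.022 in the NC libraries. GFAP transcripts had a GC content of 57.8%. With GC content and length taken into account the GFAP log2 fold change was -0.80 and did not pass the threshold (edgeR adjusted p = 0.0586).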

How the data were processed

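Per the labels' protocols, total RNA of U251 cells was made into Illumina libraries. Per the file headers, the authors deposited read counts and FPKM values per Ensembl gene. The submitters' processing notes name Bowtie 0.12.2, whereas which counter, annotation, build and strandedness were used is not given in the sources used here. GENCODE v29 held 40903 of the 42307 identifiers, 89.7% of them with a boundary within 1 base of the deposited one, and coordinates are therefore called GRCh38. GC content and lengths were computed from GENCODE v29 transcripts.

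The test on counts was that of edgeR 4.0.16 (R 4.3.3; filterByExpr, TMM, robust quasi-likelihood fit of both groups of 3 without covariates, two-sided, Benjamini-Hochberg adjustment over all tested genes). The script was tested on simulated data that held no GC trend and no batch, so that test does not cover either. Standard errors are the log2 fold change over the square root of F, so they and the intervals are approximate. Chi-square per gene between libraries of a group was 11.9 to 23.4, above what counting error alone gives. This does not tell separate cultures from separate libraries of the same RNA. Ratios used counts plus 0.5.

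The 10 genes, 9 lists with 191 entries and the tests were chosen with earlier results of these data known. Named were STING1, the 10 genes, every called gene of a list or else its 2 smallest p-values, the 5 genes most like GFAP, and genes overlapping GFAP, VIM or SOX2. Genes overlapping SOX9, CD44, PROM1 or SLC1A3 are not named here. HEPACAM was named after its values were seen. AQP4, SOX1 and MOG were not analysed here. Alternatives were other scalings, filters, DESeq2 1.42.0, limma 3.58.1 on counts (voom) and on log2(FPKM + 0.1), a replicate block, GC and length offsets, and each library left out.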

Additional observations from a re-analysis of the deposited data

How the results depend on the processing

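GFAP kept its direction in all 17 alternatives. Its log2 fold change was -0.86 with no filter on low counts (adjusted p = 0.081), -0.82 with limma on FPKM (0.1003) and -0.80 with offsets for GC content and length (0.0586), without passing the threshold, and -1.001 to -0.74 with each library left out. Of the 10 genes, 0 were called lower with no filter or with limma on FPKM, 2 with a filter at a mean of 1 CPM, 3 with DESeq2 (GFAP, NES and SOX9) and 0 to 1 with each library left out. SOX9 also passed with the 1 CPM filter (adjusted p = 0.0452) and the offsets (0.0473). Genes called in all were 324, against 645 with the 1 CPM filter, 922 with DESeq2, 13 with limma on FPKM, 503 with the offsets and 60 to 741 with each library left out. Scaling to total counts gave 246 higher and 138 lower, against 131 and 193. SLC1A3 changed sign with total counts (0.0174) and limma on FPKM (0.00685) and ranged from -0.0467 to 0.0287 with each library left out. OLIG2 changed sign with the offsets (0.0261) and ranged from -0.52 to 0.44, and CCDC103 from -0.13 to 0.0164. Scaling to total counts put VIM at -0.06 and CD44 at -0.0157, and CD44 stood at -0.0247 with limma on FPKM, -0.0251 without NC 1 and -0.0744 with the offsets. The causes were not tested.

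The labels share replicate numbers between groups. Deviations from the group means correlated at 0.137, 0.175 and 0.00626 for equal numbers, and from -0.177 to 0.0437 for unequal numbers. Whether equal numbers mark a shared culture or batch was not tested. STING-OE 3 correlated best with NC 1. With the number as a replicate block 120 genes were called, GFAP stood at -0.87 (adjusted p = 0.000474), 1 of the 9 other called list genes passed, FADS2 did not (adjusted p = 0.0736), and PTPRC did (-1.13, 0.0398). Counts of at most 22, as for OLIG2 and PROM1, limit what this depth can show.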
